A study of Homo sapiens with 6 samples.

Results

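The genes described here are 10 effector genes of the ATF4-CHOP stress pathway: TRIB3, CHAC1, SESN2, DDIT4, GDF15, CEBPB, CEBPG, STC2, NUPR1 and VLDLR. They were taken by name, as known targets of the pathway, by a rule that uses no measured value, although earlier results of these data were known when the list was drawn up. All 10 were found among the 57736 genes of the count table, and all 10 were among the 14653 genes with enough counts to be tested. Their RNA was measured in PC3, a cell line from a human prostate cancer, after transfer of an siRNA against Mic60 (siMic60, 3 libraries) or of a control siRNA (siCTRL, 3 libraries). Mic60 is a structural protein of the mitochondrial inner membrane, encoded by IMMT. The labels also call the groups Mic60 KO and Mic60 WT, but they name siRNAs, so the siMic60 cells are described here as silenced. Only 1 Mic60-directed group was sequenced, and neither the time after transfer nor the sequence of the siRNA was given in the sources used here.

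Cells under stress phosphorylate the translation factor eIF2-alpha, which slows protein synthesis as a whole but favours translation of the transcription factor ATF4. ATF4 and its own target CHOP, encoded by DDIT3, then switch on genes of amino acid supply together with a smaller group of effectors that restrain growth, change redox balance or are secreted. Mitochondrial damage is a known trigger of this response. ATF4 is controlled largely at translation, so mRNA levels follow only a part of it.

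The QuantSeq 3′ chemistry samples each transcript near its polyadenylated end, and the total count was 6644495 to 8779877 in siMic60 libraries and 7714837 to 8396244 in siCTRL libraries. IMMT averaged 7.23 ± 1.36 CPM (counts scaled to a common library size, with TMM factors) in siMic60 cells and 90.2 ± 1.14 CPM in siCTRL cells (SD, n = 3 each). The epithelial and PC3 markers KRT8, KRT18, KRT19, EPCAM and VIM were detected in all 6 libraries, and the prostate marker KLK3 had no count in any. All 5 were called changed by the test described with the members. KRT19, EPCAM and KRT18 fell (log2 fold changes −0.94, −0.75 and −0.53), and KRT8 and VIM rose (0.62 and 0.60). Without siCTRL replicate 1, KRT18 was at −0.32 and VIM at 0.38, and with each library left out in turn KRT18 was called in 4 and VIM in 5 of 6 fits. The part of these shifts in the results for the stress genes was not tested. Of 14 markers of leukocytes, endothelium and fibroblasts in the table, only COL1A1 had enough counts to be tested, and CD3E, CD3D and MS4A1 were at 0 in all libraries. The sum of the 14 was 47.1 to 66.9 CPM in siMic60 and 279 to 373 CPM in siCTRL libraries, nearly all of it from COL1A1, a collagen gene, which fell to 45.8, 64.9 and 61.6 CPM in siMic60 libraries, against 370, 277 and 279 CPM in siCTRL libraries (log2 fold change −2.42, edgeR adjusted p = 2.72e-08). The study describes its data in general as independent biological replicates, but neither that statement nor the labels say that these libraries came from separate cultures, so the p-values rest on the spread among these 6 libraries, which may be partly technical.

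Upstream sequences are shown for the 3 members with higher RNA that have an entry in the table of RefSeq promoters (SESN2, STC2 and TRIB3) and for the 2 members whose promoter holds the core of the C/EBP-ATF response element (CHAC1 and CEBPG), the element through which ATF4 acts. Each is the 250 bases before the annotated start, 5′ to 3′ on the strand of the gene, from RefSeq on GRCh38.p14. CEBPG has 2 annotated starts and TRIB3 has 3. For these genes the start with the most matches to that core is shown, so the CEBPG start was chosen for holding it. No start of TRIB3 holds it. Capitals mark matches, on either strand, to the response element core TGATGNAA or to CCAAT, a common promoter box.
SESN2, chr1:28259268-28259517, plus strand: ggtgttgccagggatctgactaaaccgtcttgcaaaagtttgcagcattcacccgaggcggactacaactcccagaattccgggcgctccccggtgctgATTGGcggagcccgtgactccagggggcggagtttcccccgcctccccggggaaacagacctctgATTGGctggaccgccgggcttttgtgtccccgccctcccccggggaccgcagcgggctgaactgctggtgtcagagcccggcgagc
STC2, chr5:173328415-173328664, minus strand: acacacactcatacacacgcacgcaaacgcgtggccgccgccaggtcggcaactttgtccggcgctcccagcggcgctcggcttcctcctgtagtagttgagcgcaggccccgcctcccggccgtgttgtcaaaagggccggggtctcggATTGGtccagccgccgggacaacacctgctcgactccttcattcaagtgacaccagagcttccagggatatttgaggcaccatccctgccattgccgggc
TRIB3, chr20:381045-381294, plus strand: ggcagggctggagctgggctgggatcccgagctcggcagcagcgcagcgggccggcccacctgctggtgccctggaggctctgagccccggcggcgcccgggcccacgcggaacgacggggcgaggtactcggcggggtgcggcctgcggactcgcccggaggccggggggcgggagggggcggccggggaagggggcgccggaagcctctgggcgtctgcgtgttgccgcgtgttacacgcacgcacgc
CHAC1, chr15:40953221-40953470, plus strand: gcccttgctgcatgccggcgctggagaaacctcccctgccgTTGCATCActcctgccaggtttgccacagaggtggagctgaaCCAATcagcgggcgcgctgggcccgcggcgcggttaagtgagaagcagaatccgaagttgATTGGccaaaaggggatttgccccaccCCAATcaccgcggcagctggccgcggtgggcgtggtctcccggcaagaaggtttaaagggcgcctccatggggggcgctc
CEBPG, chr19:33373863-33374112, plus strand: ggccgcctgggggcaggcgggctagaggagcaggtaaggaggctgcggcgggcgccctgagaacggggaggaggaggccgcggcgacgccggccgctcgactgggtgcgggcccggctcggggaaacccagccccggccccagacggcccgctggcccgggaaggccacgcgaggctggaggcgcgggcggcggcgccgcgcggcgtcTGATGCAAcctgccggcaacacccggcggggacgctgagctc
Of the 9 members with an entry, 2 held TGATGNAA before the start, against 3.89% of the 27305 genes in the promoter table, and both matches read TGATGCAA, which 0.967% of those genes hold. CCAAT, searched after the sequences were seen, was present before the start in 7 of the 9 members and in 37% of all genes. In these shares a gene counts if any of its annotated starts has a match. CEBPG is among the 7 through the start not printed, and its printed sequence holds no CCAAT. The hypoxia response element core ACGTG was found upstream of 1 member, DDIT4, and of 21.7% of all genes. It lies 125 bases before the start of DDIT4, in capitals here: agaacgttgcttACGTGcgcccggagtcca (chr10:72273787-72273816, plus strand). NUPR1 was not searched. No match in a window says only that these letters are not in it.

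Of the 10 effector genes, SESN2, NUPR1, STC2 and TRIB3 rose in siMic60 cells, by 1.59-fold to 2.06-fold, and none fell at an adjusted p under 0.05 (edgeR's quasi-likelihood test with Benjamini-Hochberg adjustment over all genes). By the same rule 35.5% of all genes tested were called changed, 17.7% higher and 17.9% lower, so the 40% of members called lies near the share among all genes, and all 4 calls are in the upward direction. The median log2 fold change was 0.32 over the 10 members and 0.0022 over all genes. At an unadjusted p under 0.05 there were 6 members, the other two being CEBPB, which was higher, and VLDLR, which was lower, where 6546 of the 14653 genes tested had such a p. The siMic60 and siCTRL libraries did not overlap for 5 members, all with higher siMic60 values, where 47.9% of all genes did not overlap and 23.7% did so with siMic60 above.

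**Figure D1:**
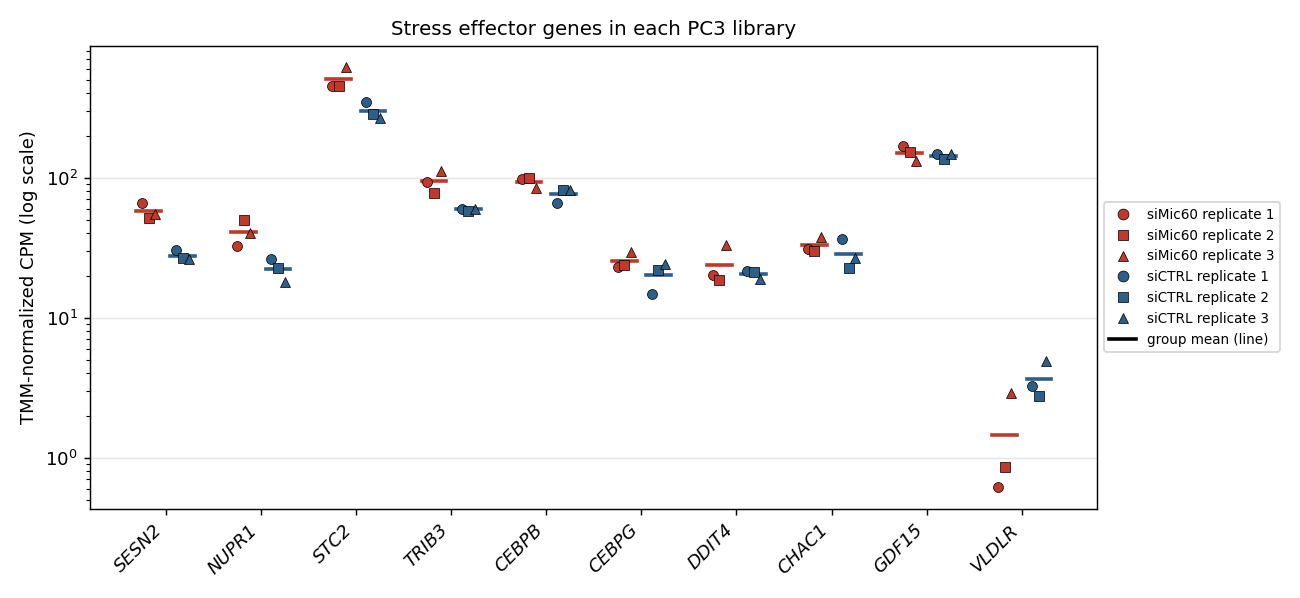
TMM-normalized CPM (log scale) of the 10 stress effector genes, with 1 point for each library, siMic60 in red and siCTRL in blue, and a line at each group mean. SESN2, NUPR1, STC2, TRIB3 and CEBPB have all 3 siMic60 points above all 3 siCTRL points, GDF15 shows means of 151 and 144 CPM, and VLDLR lies below 5 CPM in every library.

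The growth restraining members were SESN2 and DDIT4. SESN2 encodes sestrin 2, a leucine-binding protein that holds back the growth kinase complex mTORC1 through GATOR2. It was at 65.8, 51.5 and 55.0 CPM in siMic60 libraries, against 30.3, 26.9 and 26.3 CPM in siCTRL libraries. Every siMic60 library was well above every siCTRL library, and the gap between the groups was larger than the spread within either. Its fold was 2.06 (95% interval 1.68 to 2.52, edgeR adjusted p = 3.86e-05), the largest increase among the 10. Even so, 752 called genes in the table, SESN2 included, had a log2 increase at least as large.

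DDIT4 encodes REDD1, which restrains the same kinase complex through TSC1 and TSC2 and is known as a hypoxia as well as an ATF4 target. Its siMic60 libraries read 20.2, 18.7 and 33.0 CPM, and its siCTRL libraries 21.5, 21.4 and 19.0 CPM. The third siMic60 library alone was high, and the others fell inside or near the siCTRL range. The fold was 1.17 (95% interval 0.871 to 1.57, edgeR adjusted p = 0.41). Without siMic60 replicate 3 the sign turned, to a log2 fold change of −0.081. The direction of DDIT4 thus rested on 1 library.

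TRIB3, NUPR1, CEBPB and CEBPG act in the nucleus or on signaling. TRIB3 is a pseudokinase that binds ATF4 and CHOP and damps their activity, and it also binds the kinase AKT. It stood at 93.7, 78.2 and 111 CPM in siMic60 libraries, against 60.29, 58.2 and 59.9 CPM in siCTRL libraries. The siCTRL values were tight, with a coefficient of variation of 1.91%, where the median over the 3753 tested genes of similar level was 9.49%, while the siMic60 values varied by 17.4%, against 9.76% among those genes. TRIB3 rose 1.59-fold (95% interval 1.30 to 1.94, edgeR adjusted p = 0.00145).

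NUPR1 encodes a small chromatin-associated protein induced by many stresses. Its siMic60 libraries held 212, 410 and 351 counts, or 32.5, 50.2 and 40.5 CPM, and its siCTRL libraries 218, 182 and 146 counts, or 26.1, 22.8 and 18.0 CPM. The groups did not overlap, although siMic60 replicate 1 came close to siCTRL replicate 1. NUPR1 rose 1.84-fold (95% interval 1.42 to 2.40, edgeR adjusted p = 0.00136).

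CEBPB, a leucine zipper transcription factor of inflammation and stress, was at 97.7, 99.2 and 84.6 CPM in siMic60 and 65.7, 82.4 and 81.1 CPM in siCTRL libraries. All siMic60 libraries were above all siCTRL libraries, but siMic60 replicate 3 only narrowly. The fold of 1.23 (95% interval 1.02 to 1.48) did not pass after adjustment (edgeR adjusted p = 0.0868). CEBPG, the short family member that pairs with ATF4, was at 23.0, 23.9 and 29.5 CPM in siMic60 and 14.7, 21.8 and 24.2 CPM in siCTRL libraries. The groups overlapped, with siCTRL replicate 1 low, and the fold was 1.26 (95% interval 0.959 to 1.66, edgeR adjusted p = 0.177). Without siCTRL replicate 1 its log2 fold change was 0.15 in place of 0.34.

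CHAC1 degrades glutathione and is among the best known targets of ATF4 and CHOP together. It read 30.8, 29.98 and 37.8 CPM in siMic60 and 36.6, 22.5 and 26.5 CPM in siCTRL libraries. The ranges overlapped because siCTRL replicate 1 was higher than 2 of the siMic60 libraries. The fold was 1.15 (95% interval 0.889 to 1.495, edgeR adjusted p = 0.393). Without siCTRL replicate 1 the log2 fold change was 0.42 (edgeR adjusted p = 0.0523), against 0.21 with all libraries, and without siCTRL replicate 2 it was 0.054. Its promoter, printed above, holds the intact response element core, as does that of CEBPG, and neither gene passed the test. Among other listed genes, named here for holding the core, ATF3, AARS1, GARS1, IARS1 and HERPUD1 were called higher. IARS1 was called in 4 of the 6 fits that left out a library. ASNS, MTHFD1L, PPP1R15B, SLC1A5 and TSC2 also hold the core and were not called. In the lists that hold these genes, 37.5% to 55.6% of tested genes were called, against 35.5% of all genes tested. A link between the core and these calls was not tested.

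GDF15 and STC2 are secreted. GDF15, a stress hormone that acts on the receptor GFRAL in the hindbrain, was at 168, 153 and 132 CPM in siMic60 and 148, 136 and 148 CPM in siCTRL libraries. The siCTRL values lay inside the siMic60 range, and the fold was 1.05 (95% interval 0.878 to 1.25, edgeR adjusted p = 0.693), the narrowest interval of the 10. A rise of GDF15 beyond 1.25-fold is outside that interval. STC2, a glycoprotein that inhibits the protease PAPPA, was at 453, 450 and 618 CPM in siMic60 and 347, 285 and 266 CPM in siCTRL libraries. Both groups had a high library, siMic60 replicate 3 and siCTRL replicate 1, and still did not overlap. STC2 rose 1.69-fold (95% interval 1.37 to 2.10, edgeR adjusted p = 8.24e-04), on 11994 counts in siMic60 and 7329 counts in siCTRL libraries.

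VLDLR, a receptor for lipoproteins and reelin, was the member with the fewest reads and the one that went the other way. It had 4, 7 and 25 counts in siMic60 and 27, 22 and 40 counts in siCTRL libraries, or 0.613, 0.857 and 2.88 CPM against 3.24, 2.75 and 4.93 CPM. The siMic60 replicate 3 library reached into the siCTRL range, and the other two siMic60 libraries were far below it. The log2 fold change was −1.27 (95% interval −2.31 to −0.23, edgeR adjusted p = 0.0559). Without siMic60 replicate 3 it was −2.26 (edgeR adjusted p = 0.00453), and over all alternatives the adjusted p ran between 0.00453 and 0.18, so its call depends on the setting. VLDLR-AS1, on the opposite strand, had 5, 2 and 9 counts in siMic60 and 5, 6 and 4 counts in siCTRL libraries. The strand setting of the counting was not given in the sources used here. Without it, reads in the stretch where this pair overlaps may have been counted for the wrong gene. Whether the 3′ ends that QuantSeq samples lie in that stretch was not examined.

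**Figure D2:**
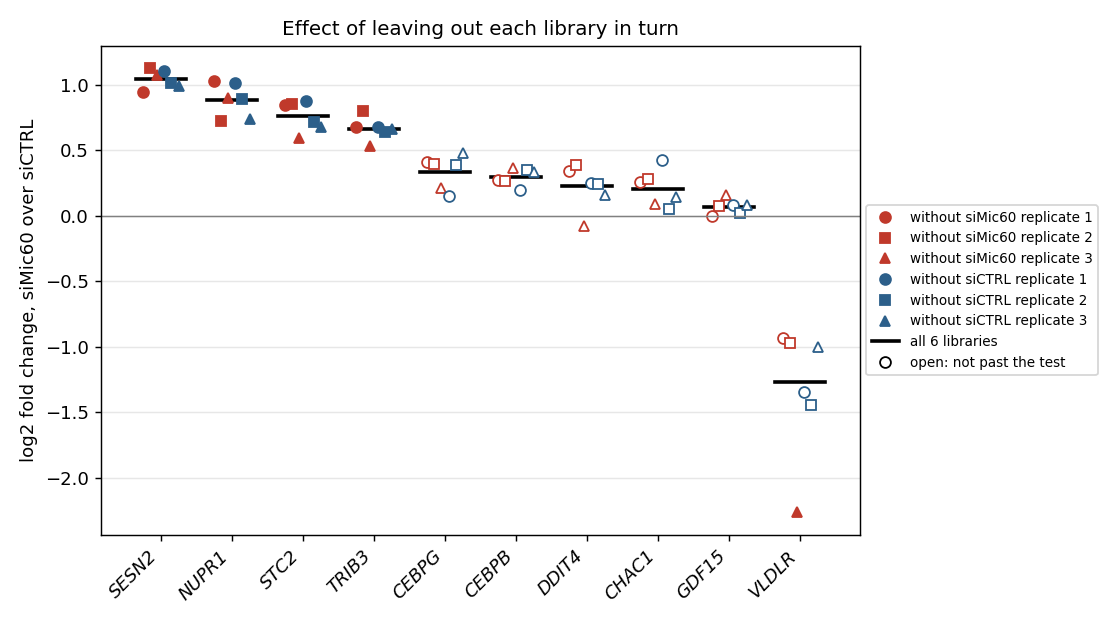
Log2 fold change, siMic60 over siCTRL, of the 10 genes with all 6 libraries (black line) and with each library left out in turn (red, an siMic60 library; blue, an siCTRL library). Filled points passed the test. SESN2, NUPR1, STC2 and TRIB3 are filled and above 0 in all 6 fits, and VLDLR is filled only without siMic60 replicate 3.

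The siMic60 replicate 3 library was the highest of its group for TRIB3, STC2, DDIT4, CHAC1, CEBPG and VLDLR, and the lowest for GDF15 and CEBPB. The siCTRL replicate 1 library was the highest of its group for STC2, CHAC1, SESN2, NUPR1, TRIB3 and DDIT4, and the lowest for CEBPB and CEBPG. Over all tested genes, the counts of siCTRL replicate 1 differed from the other siCTRL libraries by a chi-square of 10.8 and 13.5 per degree of freedom, and those 2 differed from each other by 3.54. Among the siMic60 libraries the values were 10.1, 8.10 and 10.1. Leaving out siMic60 replicate 3, siCTRL replicate 1 or any other library left SESN2, NUPR1, STC2 and TRIB3 called higher. Their log2 fold changes across these 6 fits were 0.95 to 1.13 for SESN2, 0.73 to 1.03 for NUPR1, 0.59 to 0.88 for STC2 and 0.53 to 0.80 for TRIB3.

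Members were set beside the other genes of their families, of which 9 were tested, 3 higher and 4 lower. That is 77.8% called, against 35.5% of all genes tested. SESN3, counted among the 4 lower, reached the test only through its siCTRL counts. DDIT3 counts both here and among the genes of ATF4 control, and CHAC2 both here and among the glutathione genes. STC1, the sister hormone of STC2, fell to 8.59, 9.18 and 10.8 CPM in siMic60 libraries, against 59.7, 51.9 and 44.6 CPM in siCTRL libraries (log2 fold change −2.44, standard error 0.16, edgeR adjusted p = 3.44e-08). The ratio of STC2 to STC1 counts within a library, which needs no scaling, was 52.8, 49.0 and 57.1 in siMic60 and 5.81, 5.48 and 5.96 in siCTRL libraries. The groups of ratios did not overlap, and the exact two-sided permutation p was 0.1, the smallest that 3 against 3 libraries allow (0.1 after adjustment over 5 such pairs). In all 5 pairs the relative was itself called changed in these libraries. Ratios of SESN2 to SESN1 and of VLDLR to LRP8, whose relatives were not called, were not taken. The ratios thus describe changes already called and are no separate test of them.

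TRIB1 and TRIB2, pseudokinases that recruit the ubiquitin ligase COP1, fell while TRIB3 rose. TRIB2 was at 22.2, 24.97 and 36.5 CPM in siMic60 and 125, 118 and 125 CPM in siCTRL libraries (log2 fold change −2.13, standard error 0.16, edgeR adjusted p = 1.55e-07). TRIB1 averaged 132 ± 7.53 CPM in siMic60 and 199 ± 42.8 CPM in siCTRL cells (SD, n = 3 each; log2 fold change −0.59, edgeR adjusted p = 0.00478). There were 4.21, 3.13 and 3.04 TRIB3 counts for each TRIB2 count in siMic60 libraries, against 0.482, 0.491 and 0.477 in siCTRL libraries. The ratio was higher in every siMic60 library than in any siCTRL library (exact two-sided permutation p = 0.1, the smallest possible).

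Of the other sestrins, SESN3 fell to 1, 6 and 8 counts in siMic60 libraries, against 22, 31 and 31 counts in siCTRL libraries (log2 fold change −2.42, edgeR adjusted p = 0.0013). SESN1 had 27, 18 and 51 counts in siMic60 and 41, 39 and 41 counts in siCTRL libraries and did not pass (edgeR adjusted p = 0.558). SESN2 thus rose where SESN3 fell, and SESN1 was not called. CHAC2, a slower glutathione-degrading relative of CHAC1, rose 2.51-fold, with 56, 66 and 68 counts in siMic60 and 17, 25 and 37 counts in siCTRL libraries (edgeR adjusted p = 0.0027). The ratio of CHAC1 to CHAC2 counts was 3.59, 3.71 and 4.82 in siMic60 and 17.9, 7.20 and 5.81 in siCTRL libraries, with no overlap (exact two-sided permutation p = 0.1, the smallest possible).

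Among C/EBP factors, CEBPD, an acute-phase regulator, rose 1.79-fold, with 33.7 ± 2.68 CPM in siMic60 and 18.8 ± 3.80 CPM in siCTRL cells (SD, n = 3 each; edgeR adjusted p = 0.00109). CEBPA had 3 counts over the siMic60 and 6 counts over the siCTRL libraries and was not tested, and CEBPE had none. LRP8, the other reelin receptor, averaged 26.6 ± 3.48 CPM in siMic60 and 31.8 ± 7.31 CPM in siCTRL cells (SD, n = 3 each; edgeR adjusted p = 0.276). It was called lower only without siCTRL replicate 1 (log2 fold change −0.44, edgeR adjusted p = 0.0324). DDIT4L and NUPR2 had no count in any library.

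**Figure D3:**
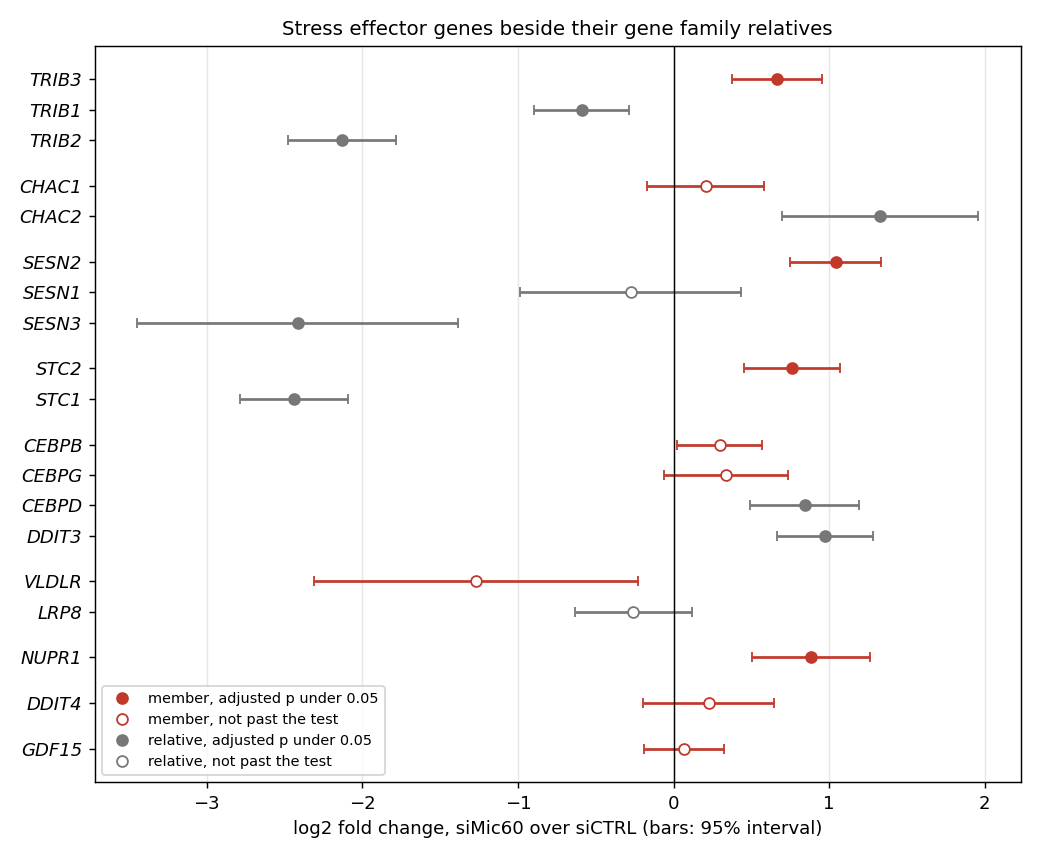
Log2 fold change, siMic60 over siCTRL, with its 95% interval, for the 10 stress effector genes (red) and 9 gene family relatives (grey), grouped by family, where filled points passed the test. STC1, TRIB2 and SESN3 lie below −2, while STC2, TRIB3 and SESN2 lie between 0.67 and 1.04. SESN3 reached the test only through its siCTRL counts.

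The regulators upstream of the members were examined in the same libraries. Of 13 genes of ATF4 and eIF2-alpha control, 7 rose and none fell, a share of 53.8% called, against 35.5% of all genes tested. ATF4 was at 232, 299 and 238 CPM in siMic60 and 150, 116 and 109 CPM in siCTRL libraries, 2.05-fold higher (95% interval 1.65 to 2.53, edgeR adjusted p = 6.48e-05). DDIT3, which encodes CHOP, was at 43.8, 37.8 and 45.9 CPM in siMic60 and 24.8, 19.9 and 20.2 CPM in siCTRL libraries, 1.96-fold higher (95% interval 1.58 to 2.43, edgeR adjusted p = 1.15e-04). For both, no siMic60 library overlapped the siCTRL range, and their folds were close to that of SESN2. The stress factors ATF3 and ATF5 rose 2.16-fold and 2.11-fold.

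Of the 4 kinases of eIF2-alpha, the endoplasmic reticulum kinase PERK (EIF2AK3) rose 3.00-fold, with 18.8 ± 1.15 CPM in siMic60 and 6.25 ± 1.19 CPM in siCTRL cells (SD, n = 3 each; edgeR adjusted p = 2.25e-05). PKR (EIF2AK2), which senses double-stranded RNA and is itself induced by interferon, rose 1.88-fold. The heme and mitochondrial stress kinase HRI (EIF2AK1) had a log2 fold change of −0.22 and the amino acid sensor GCN2 (EIF2AK4) one of −0.16, and neither passed (edgeR adjusted p = 0.164 and 0.323). PPP1R15A, whose product GADD34 reverses eIF2-alpha phosphorylation, rose 1.48-fold, while its constitutive counterpart PPP1R15B did not pass (log2 fold change −0.076). The eIF2-alpha gene EIF2S1 and the mitochondrial relay genes DELE1 and OMA1 had log2 fold changes of 0.12, 0.18 and 0.19 and did not pass. OMA1 rested on 20, 35 and 68 counts in siMic60 and 33, 41 and 36 counts in siCTRL libraries. These are mRNA levels, and phosphorylation and protein were not measured.

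**Figure D4:**
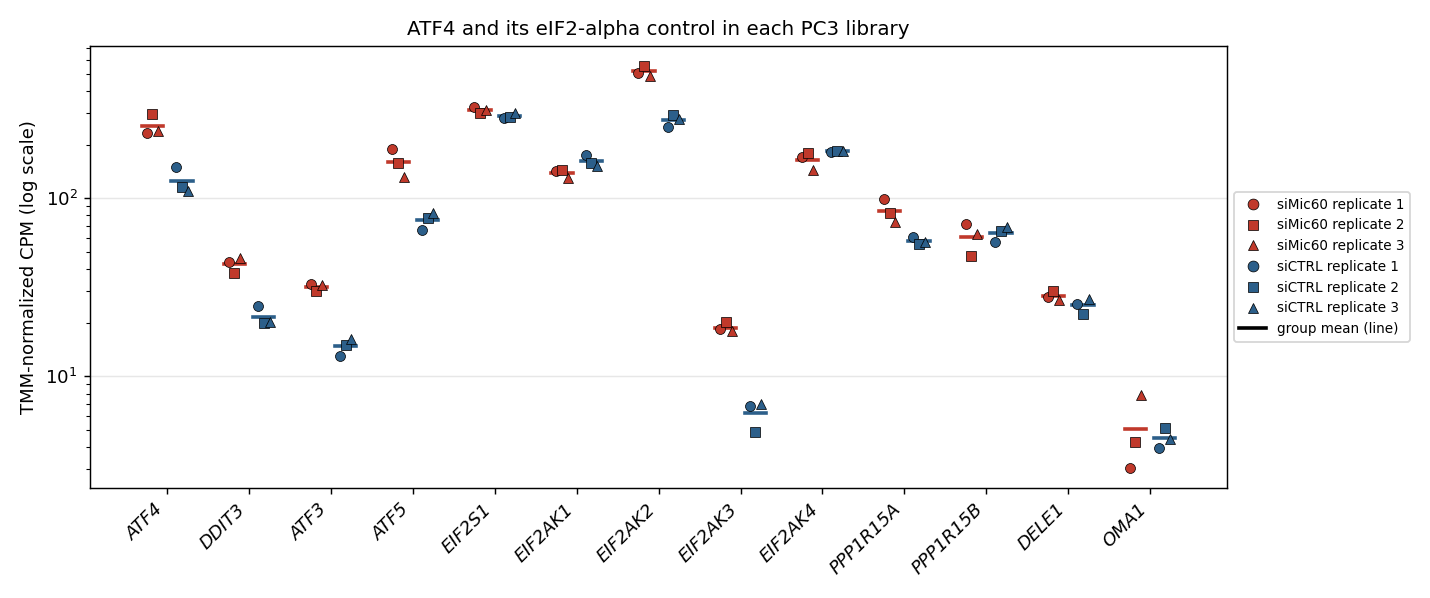
TMM-normalized CPM (log scale) of 13 genes of ATF4 and eIF2-alpha control, with 1 point for each library, siMic60 in red and siCTRL in blue, and a line at each group mean. ATF4, DDIT3, ATF3, ATF5, EIF2AK2, EIF2AK3 and PPP1R15A, the 7 that rose, have all siMic60 points above all siCTRL points.

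Other classes of ATF4 target moved in part. The share called was 55.6% of amino acid transporters, 50% of synthesis genes, 46.2% of aminoacyl-tRNA synthetases and 42.9% of genes linked to CHOP. Among all genes tested it was 35.5%. Of 9 amino acid transporters tested, 5 rose and none fell (median log2 fold change 0.37), with 3 rising when siCTRL replicate 2 or siMic60 replicate 3 was left out. SLC7A5, the light chain of the large neutral amino acid exchanger, rose 3.74-fold, its heavy chain SLC3A2 1.82-fold, the cationic transporter SLC7A1 1.67-fold and the glycine transporter SLC6A9 1.73-fold, which was called in 4 of the 6 fits that left out a library. Of 12 genes of amino acid and one-carbon synthesis, 4 rose and 2 fell (median 0.25). The serine hydroxymethyltransferase SHMT2 rose 1.72-fold and CTH, which makes cysteine, 3.11-fold, MTHFD2 of the folate cycle rose 1.49-fold, and the aminotransferase GPT2 fell (log2 fold change −0.93). Asparagine synthetase ASNS, a standard ATF4 target with the response element core in its promoter, averaged 32.1 ± 3.40 CPM in siMic60 and 34.2 ± 3.20 CPM in siCTRL cells (SD, n = 3 each; edgeR adjusted p = 0.661) and was named after its values were seen. Of 13 cytosolic aminoacyl-tRNA synthetases, 6 rose and none fell (median 0.22), led by WARS1 at 2.10-fold, which interferon also induces, and followed by AARS1 at 1.53-fold, GARS1 at 1.40-fold and CARS1 at 1.33-fold, the last called in 4 of the 6 fits that left out a library. Of 7 genes linked to CHOP, 3 rose, namely ATF3, PPP1R15A and the oxidase ERO1A (1.37-fold). ATF3 and PPP1R15A were already counted above among the genes of ATF4 control. The death receptor TNFRSF10B and the BCL2 family genes BBC3 and BCL2L11, named after their values were seen, did not pass.

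Pathways in which single members act were compared as well. Of 24 genes of mTORC1 control, where SESN2 and DDIT4 act, 3 rose and 6 fell. Their share called was 37.5%, near the 35.5% of all genes tested. The Rag GTPase gene RRAGC rose 1.44-fold and the GATOR2 subunits SEC13 and SEH1L rose 1.41-fold and 1.42-fold, while RRAGB fell (log2 fold change −1.05). MTOR, RPTOR and MLST8, which encode the kinase and its scaffolds, were called lower, with log2 fold changes of −0.56, −0.48 and −0.54, and were named after their values were seen. With a library left out, MTOR was called in 3, RPTOR in 4 and MLST8 in 3 of 6 fits. The number called lower was 1 without siMic60 replicate 3, and 3 without siCTRL replicate 1 or without siMic60 replicate 1. Of 9 genes of glutathione synthesis and turnover, where CHAC1 acts, 2 rose, a share of 22.2% called, below the 35.5% of all genes. They were CHAC2, and GCLM, the modifier subunit of the rate-limiting ligase, at 2.00-fold (85.2 ± 8.02 CPM in siMic60 and 42.5 ± 4.70 CPM in siCTRL cells; SD, n = 3 each). DDIT4, STC2 and VLDLR are also known hypoxia targets. Of 18 other hypoxia response genes, 8 rose and 1 fell (50% called, median log2 fold change 0.27). The peptide hormone ADM was at 4.17-fold, the mitophagy receptor BNIP3 at 1.77-fold, the prolyl hydroxylase P4HA1 at 1.67-fold and enolase ENO2 lower (log2 fold change −1.05). Which input moved the members that rose was not tested.

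**Figure D5:**
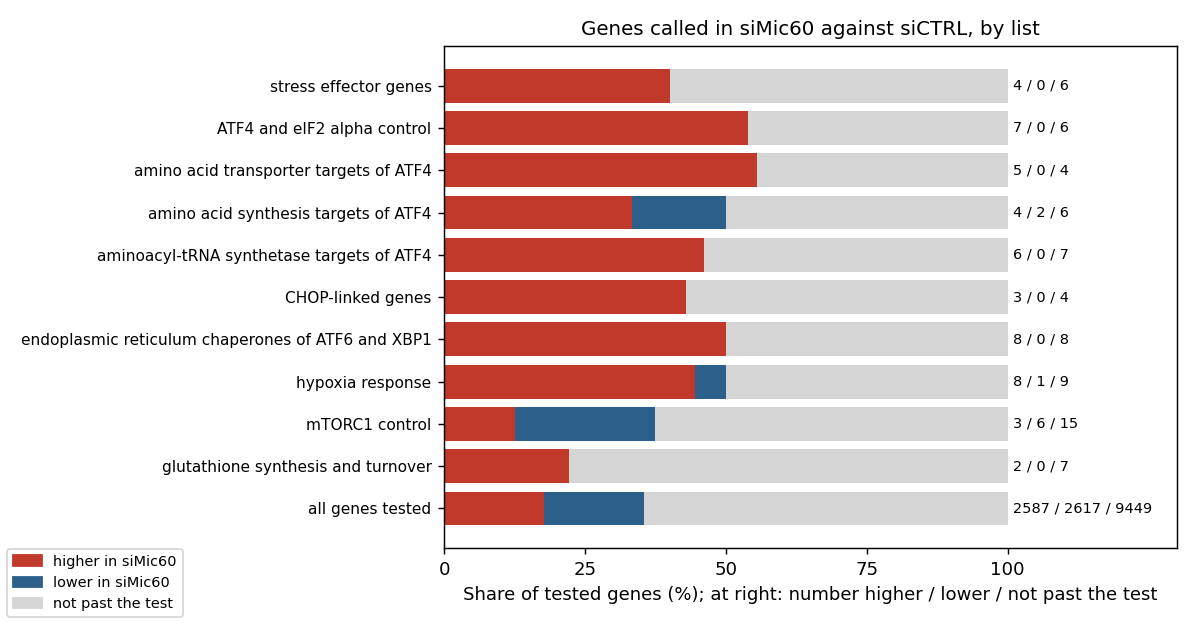
Share of tested genes (%) in each list called higher in siMic60 (red), called lower (blue) or not called (grey), with the numbers at right. The 10 stress effector genes have 4 higher and none lower, and all 14653 genes tested have 2587 higher and 2617 lower.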

How the data were processed

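The authors deposited counts per Ensembl gene for 6 QuantSeq 3′ libraries, all whole numbers. RSEM 1.2.3, DESeq2 and hg19 (GRCh37) stand in the submitters' processing notes, so the counts may be rounded estimates, while aligner, annotation and strand setting were not given in the sources used here. Symbols were matched for 52301 of 57736 rows, 39501 through current names and 12800 through GENCODE 29. Because the builds differ, coordinates are given only for RefSeq promoters.

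Testing required 10 or more counts in 3 or more libraries and was done in R 4.3.3 with edgeR 4.0.16 (TMM, quasi-likelihood test, Benjamini-Hochberg adjustment, threshold 0.05). Intervals are 95% and come from the standard error. Alternatives were DESeq2 1.42.0, limma 3.58.1 (trend, prior count of 2), other scalings, a count minimum of 50 or none, blocking on replicate number, and omission of each library. Simulated data for the siMic60 to siCTRL comparison (14422 genes) gave calls for 15 of 64 genes set to 1.5-fold, for 40 of 59 set to 2-fold, for 73 of 73 set to 5-fold, and for 11 of 14226 left alone. Only 200 genes were set to change before filtering, whereas 35.5% of tested genes were called in the data. The adjustment is stricter with so few changed genes, so these rates do not give the power of the comparison. Promoters were searched and figures drawn with Python 3.11.15, numpy 2.4.6, pandas 2.3.3, scipy 1.17.1 and matplotlib 3.10.9.

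Members and gene lists were chosen with earlier results of these data known. Named are all members, all relatives, all genes of ATF4 control and, in other lists, up to 4 called genes with the smallest adjusted p. A gene named otherwise is said to be so. TXNIP was not analysed here. Some other genes of the lists are not reported here.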

Additional observations from a re-analysis of the deposited data

How the results depend on the processing

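SESN2, NUPR1, STC2 and TRIB3 were called higher under all 13 alternatives, and the number of members called higher was 4 in each. VLDLR, not called with the settings of the report, passed with library totals (log2 fold change −1.32, adjusted p = 0.05), limma-trend (−1.39, adjusted p = 0.029), no minimum count (−1.26, adjusted p = 0.0124) and the replicate block (−1.44, adjusted p = 0.023), so that 1 member was called lower in each of these. With a library left out, VLDLR ran from −2.26 to −0.93 with 0 to 1 member called lower, DDIT4 from −0.081 to 0.39 and GDF15 from −0.0032 to 0.16. Of the relatives, LRP8 ran from −0.44 to −0.15 and SESN1 from −0.66 to 0.043. PPP1R15B ran from −0.20 to 0.086 and OMA1 from −0.28 to 0.44. Counts called in lists ran from 1 to 2 for lower genes of amino acid synthesis, from 3 to 6 for higher amino acid transporters, from 1 to 2 for lower hypoxia genes (2 with no minimum count) and from 1 to 5 for lower mTORC1 genes (3 with the replicate block). Same-numbered libraries did not deviate together (r = −0.10, −0.031 and 0.029 over genes), so equal numbers were not treated as pairs, and the block gave 2384 higher and 2382 lower genes against 2587 and 2617. Most genes set to 1.5-fold were missed in the simulation. It changed far fewer genes than were called in the data, so its rates need not hold for this comparison. VLDLR, OMA1 and SESN3 rest on few counts.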

Other observations

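Genes of protein folding and of degradation of misfolded proteins in the endoplasmic reticulum, with XBP1 among them, were measured in the same libraries. They answer to ATF6 and XBP1 beside the ATF4 branch. Of 16 tested, 8 rose and none fell (50% called, against 35.5% of all genes tested). Their median log2 fold change was 0.35, against 0.0022 over all genes. MANF, a secreted folding factor, rose 2.32-fold, with 313 ± 24.0 CPM in siMic60 and 135 ± 5.24 CPM in siCTRL cells (SD, n = 3 each). XBP1, the transcription factor of this branch, rose 2.21-fold, HERPUD1, which takes part in degradation of misfolded proteins and carries the response element core in its promoter, rose 1.87-fold, and the disulfide isomerase PDIA4 rose 1.76-fold. CCAAT was found before the start of all 16, against 37% of all genes with a promoter entry.

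Of the known partners of the members, the kinase AKT2 rose 1.75-fold and AKT1 did not pass (log2 fold change −0.16). RELN, which encodes the VLDLR ligand reelin, fell (−0.71). GFRAL, the receptor of GDF15, had no count, and PAPPA, the target of STC2, had 0 counts over the siMic60 and 6 counts over the siCTRL libraries.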
